A study of Homo sapiens with 4 samples.

Results

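The 9 genes described here encode enzymes that make, break down or use glutamine and glutamate: GLUL, GLS2, GLUD1, GLUD2, GOT1, GOT2, GPT, GPT2 and GFPT1. They were selected by gene symbol from a table of 61806 genes, and all 9 were found there, each with an Ensembl identifier that GENCODE 29 gives to the same gene. RNA was measured in 2 human bone cancer cell lines, the chondrosarcoma line JJ012 and the osteosarcoma line 143B, both cultured in suspension, that is, detached from a substrate, a state in which many adherent cells die by anoikis. For each line there was 1 untreated control library and 1 library from cells given 1 mM melatonin for 72 h, made from poly(A) RNA and sequenced as paired ends. The table's columns whose names end in T were read as the melatonin-treated libraries. Each group is thus 1 library of 1 established cell line, nothing in the labels says how many cultures it came from, and no difference described here has a replicate check, so no p-values are given.

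Glutamine is the main nitrogen carrier of cultured cells. Glutaminases release its amide nitrogen to leave glutamate, glutamine synthetase runs the opposite reaction, and glutamate then feeds the tricarboxylic acid cycle as 2-oxoglutarate either through glutamate dehydrogenase, which sets ammonia free, or through aminotransferases, which pass the nitrogen to oxaloacetate or pyruvate and so produce aspartate or alanine. The amide nitrogen of glutamine is also the entry to the hexosamine pathway, whose product is the sugar donor for protein glycosylation.

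Library totals ranged from 15889564 counts, for untreated 143B, to 19218343, for untreated JJ012, and a count of 3, used as the floor of detection, corresponds to between 0.156 and 0.189 CPM, the counts divided by the total and scaled to 1e+06. The share of counts from mitochondrially encoded genes was 6.78% without and 4.35% with melatonin in JJ012, and 1.63% and 2.46% in 143B. Of 9 chondrocyte markers, 2 reached 1 FPKM (CPM per kilobase of exonic length) in the JJ012 control, SOX9 at 15.06 FPKM and COL11A1 at 22.92 FPKM, while the cartilage matrix genes ACAN, COL2A1 and COL9A1 were between 0 and 0.02 FPKM. In the 143B control SOX9 was at 15.48 FPKM, so it did not separate the lines, and COL11A1 was at 0. Of 8 osteoblast markers, 2 reached 1 FPKM in the 143B control, RUNX2 at 4.28 FPKM and BGLAP at 1.44 FPKM, while SP7, IBSP and DMP1 were at 0. The osteoblast markers summed to 94.74 FPKM in the JJ012 control, mostly SPP1 at 79.39 and COL1A1 at 10.92 FPKM, to 68.2 FPKM after melatonin, where COL1A1 was at 0.77 FPKM, and to 6.97 and 5.07 FPKM in 143B, so that their sum, though not RUNX2 or BGLAP, was higher in the control of the chondrosarcoma line than in that of the osteosarcoma line. In JJ012 the summed level of the chondrocyte markers was 39.74 FPKM in the control and 9.98 FPKM after melatonin, and that of 4 leukocyte markers, nearly all of it CD3E, was 10.88 and 4.18 FPKM. The chondrocyte markers summed to 16.92 FPKM in the 143B control and 13.41 FPKM after melatonin, both above melatonin-treated JJ012. The part of these differences in the results below was not tested, and in bulk RNA fewer cells of a kind and less RNA per cell cannot be told apart.

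Fold changes are log2 ratios of FPKM + 1. They were read for a gene only if either library of the pair reached 1 FPKM, and a gene is called higher or lower where the absolute value was at least 0.58. For single genes the ratio of CPM is also given, with a 95% interval (exact, Clopper-Pearson) that covers counting error only, since PCR reads are not independent molecules and cultures were not repeated.

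In JJ012, 4 of the 6 enzymes that could be read passed the fold with melatonin. Transcripts of the cytosolic aspartate aminotransferase GOT1 were 2.26-fold higher, those of the hexosamine entry enzyme GFPT1 1.70-fold higher and those of the mitochondrial glutamate dehydrogenase GLUD1 1.68-fold higher, whereas transcripts of the mitochondrial alanine aminotransferase GPT2 were 2.04-fold lower, each as a ratio of CPM. Among all 15794 genes read in JJ012, 38.2% passed the fold, 19.6% as higher and 18.6% as lower, so changes of this size were common in that pair of libraries, and 3 higher and 1 lower among 6 enzymes has to be read against those shares. In 143B none of the 6 enzymes that could be read passed the fold, where 12.7% of 14135 genes did, 6.09% as higher and 6.65% as lower. The median log2 fold change of the enzymes was 0.51 in JJ012 and 0.02 in 143B, against 0.01 and 0.03 over all genes read.

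**Figure D1:**
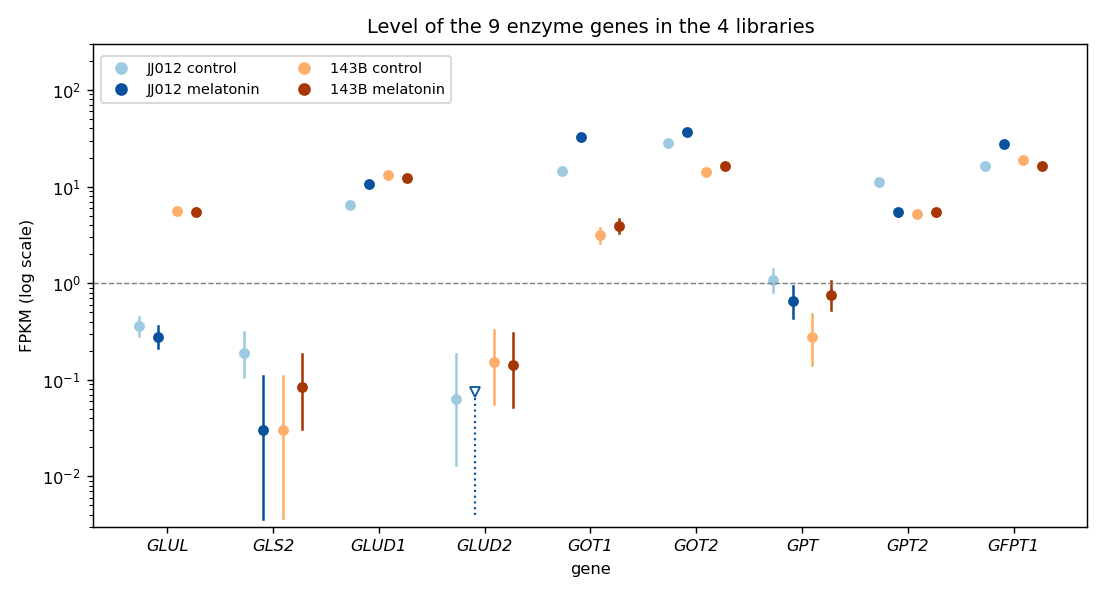
Level of each of the 9 enzyme genes in FPKM (log scale) in the 4 libraries, with 95% Poisson intervals that cover counting error only. The dashed line marks 1 FPKM, and the open triangle is the value of 3 counts, the floor, for GLUD2 in melatonin-treated JJ012, where no count was found. GLUL was at 5.53 and 5.47 FPKM in the 143B libraries and at 0.36 and 0.28 FPKM in the JJ012 libraries, and GOT1 and GOT2 were higher in both JJ012 libraries than in either 143B library.

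Of the enzymes at the head of the pathway, the one that makes glutamine separated the lines and the one that hydrolyses it was scarcely detected. GLUL, glutamine synthetase (chr1:182378098-182392206, minus strand, hg38), had 0.36 FPKM in the JJ012 control, 0.28 FPKM after melatonin, 5.53 FPKM in the 143B control and 5.47 FPKM after melatonin, from 87, 57, 1110 and 1187 counts. Its control level was 15.4-fold lower in JJ012 than in 143B as a ratio of CPM, with a counting interval from 12.4-fold to 19.4-fold, the widest gap between the lines among the 9 genes. With melatonin its log2 ratio of CPM was −0.36 in JJ012, with an interval from −0.87 to 0.14, and −0.01 in 143B, with an interval from −0.13 to 0.10, and both intervals include 0.

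GLS2, the liver-type glutaminase (chr12:56470944-56488414, minus strand), was near the floor throughout, with 15 counts in the JJ012 control, 2 after melatonin, 2 in the 143B control and 6 after melatonin, or 0.19, 0.03, 0.03 and 0.08 FPKM. It was under 1 FPKM in all 4 libraries and so was not read for a fold change. The 15 and 2 counts in JJ012 give a CPM ratio 6.30-fold lower after melatonin, with an interval from 1.47-fold to 56.8-fold, and how far the ratio could lie from this value is set by the 2 counts. SPRYD4, a gene on the opposite strand, overlaps the span of GLS2 by 8765 bases and had 267, 169, 83 and 114 counts in the same order of libraries. Whether the counting used strand is not given in the sources used here, so reads from the region the 2 genes share cannot be told apart.

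The glutamate dehydrogenases are the mitochondrial enzymes that oxidise glutamate to 2-oxoglutarate. GLUD1, the housekeeping form (chr10:87050202-87094843, minus strand), had 6.38 FPKM in the JJ012 control, 10.69 FPKM after melatonin, 13.27 FPKM in the 143B control and 12.36 FPKM after melatonin. It was lowest in the JJ012 control, and after melatonin it lay between that library and the 143B libraries. Its log2 fold change was 0.66 in JJ012 and −0.10 in 143B, and the control of JJ012 stood at −0.95 against the control of 143B.

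GLUD2, an intronless copy of GLUD1 on the X chromosome (chrX:121047610-121050094, plus strand), had 3, 0, 6 and 6 counts in the JJ012 control, melatonin-treated JJ012, the 143B control and melatonin-treated 143B. All 4 values are at or close to the floor, and the count of 0 allows a level of up to 0.075 FPKM, the value of 3 counts. The coding sequences of the 2 genes are each 1674 bases long and identical at 1634 of them (97.6%), with a longest identical run of 302 bases. The stretch of 150 bases, the length of a read, where they differ most is shown. It covers coding bases 17 to 166 of each gene (chr10:87094604-87094753, minus strand, within 1 exon of GLUD1, and chrX:121047701-121047850, plus strand, in GLUD2, GENCODE 29, GRCh38), and the 15 bases that differ are in capitals.
GLUD1: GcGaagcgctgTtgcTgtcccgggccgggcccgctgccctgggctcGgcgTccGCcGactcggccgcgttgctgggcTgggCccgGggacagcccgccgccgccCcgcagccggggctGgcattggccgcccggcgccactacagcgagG
GLUD2: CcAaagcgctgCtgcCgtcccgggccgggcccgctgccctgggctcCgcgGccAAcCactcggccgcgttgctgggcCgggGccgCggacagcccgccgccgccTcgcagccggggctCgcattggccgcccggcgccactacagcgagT
Elsewhere the genes are closer still, and 226 of the 1525 stretches of this length in GLUD1 occur unchanged in GLUD2, while the rest hold a difference. A read from such a stretch fits both genes, so the assignment of counts between them is uncertain, and the ratio of GLUD1 to GLUD2, 102 in the JJ012 control, at least 143 after melatonin with GLUD2 set at the floor of 3 counts, and 87.3 and 87.9 in 143B, carries that uncertainty. It also rests on the deposited exonic length of GLUD1, and per kilobase of the GENCODE 29 transcripts it was 479 in the JJ012 control and 412 and 414 in 143B. The related genes GLUD1P3, with 144, 95, 30 and 46 counts, and GLUD1P2, with 5, 5, 2 and 3, are also in the table. Their sequences were not compared with those of GLUD1 and GLUD2.

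GLUD1 also shares 683 bases with SHLD2 on the opposite strand, which had 594, 1021, 695 and 819 counts in the 4 libraries, against 1751, 2465, 3012 and 3030 for GLUD1. SHLD2 was thus also higher with melatonin in JJ012, at a log2 ratio of CPM of 1.03, and near its control in 143B, at 0.13. Without a stated strand setting the share of reads that belongs to each of these neighbours was not resolved.

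The aspartate aminotransferases, which exchange the amino groups of glutamate and aspartate on the 2 sides of the mitochondrial membrane, included the gene with the highest FPKM of the group in both JJ012 libraries, GOT2. GOT1, the cytosolic form (chr10:99396870-99430624, minus strand), had 14.49 FPKM in the JJ012 control, 32.71 FPKM after melatonin, 3.14 FPKM in the 143B control and 3.92 FPKM after melatonin, from 675, 1280, 121 and 163 counts. Both JJ012 libraries were above both 143B libraries, by 4.61-fold between the controls (3.80-fold to 5.64-fold, as a ratio of CPM). The log2 fold change with melatonin was 1.12 in JJ012, a value equalled or exceeded by 5.52% of all genes read there, and 0.25 in 143B, where the counting interval of the CPM ratio, from −0.03 to 0.67 in log2, includes 0.

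GOT2, the mitochondrial form (chr16:58707131-58734342, minus strand), had 28.59 FPKM in the JJ012 control, 36.79 FPKM after melatonin, 14.01 FPKM in the 143B control and 16.34 FPKM after melatonin. It stayed within the fold in both lines, at 0.35 in JJ012 and 0.21 in 143B, and both counting intervals lay above 0. Its control level was 2.04-fold higher in JJ012 than in 143B. The ratio of GOT2 to GOT1, in FPKM, was 1.97 in untreated JJ012 and 1.12 with melatonin, a log2 change of −0.81 with a counting interval from −0.97 to −0.65, and it was 4.46 and 4.17 in 143B. Since both genes are read in the same library, this ratio does not depend on how libraries were scaled to each other. The cytosolic share of aspartate aminotransferase transcripts was thus larger in JJ012 than in 143B and larger still in JJ012 after melatonin. The level of the ratio, unlike its change, rests on the gene lengths used, and per kilobase of the GENCODE 29 transcripts it was 3.63 and 2.07 in JJ012 and 8.19 and 7.66 in 143B.

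The bases upstream of GOT1, which of the enzymes read had the largest fold change with melatonin in JJ012, are shown because they hold motifs that the other windows searched mostly lacked. Upstream windows of 250 bases were taken from RefSeq (GRCh38.p14) for 7 of the 9 genes, 8 windows in all because GLUL has 2, and searched on both strands for TGATGNAA, the element bound by ATF4 with a C/EBP partner, for CCAAT, the element bound by NF-Y, and for CACGTG, the E-box bound by MYC. The GOT1 window (chr10:99430625-99430874, minus strand) is given with the matches to TGATGNAA and CCAAT, read on either strand, in capitals.
GOT1: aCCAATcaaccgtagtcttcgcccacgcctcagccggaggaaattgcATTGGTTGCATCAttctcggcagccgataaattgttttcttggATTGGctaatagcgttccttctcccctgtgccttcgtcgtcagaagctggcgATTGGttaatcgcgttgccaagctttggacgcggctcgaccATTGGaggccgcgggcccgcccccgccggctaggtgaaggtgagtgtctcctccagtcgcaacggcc
It holds 1 match to TGATGNAA, 198 to 191 bases before the start, and 5 matches to CCAAT, of which the one at 203 to 199 bases adjoins it, so that a run of capitals there spans both. Of 35116 upstream windows of all genes, 3.14% held TGATGNAA, 32.0% held CCAAT at least once and 0.319% held it at least 5 times. Among the other enzymes with a window, 1 window of GLUL held CCAAT, at 2 places, and no other window held either motif. No window was found for GPT or GPT2, so these genes were not searched. CACGTG, which 6.34% of all windows held, was in none of the 8. A match is a description of these letters and not a measured binding site. Transcripts of ATF4 were at 135.49 FPKM in the JJ012 control and 202.61 FPKM after melatonin, a log2 fold change of 0.577 that lies just under the threshold, and at 345.50 and 352.52 FPKM in 143B.

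The alanine aminotransferases, which exchange the amino groups of glutamate and alanine, had lower levels after melatonin in JJ012, GPT2 past the fold and GPT within it. GPT2, the mitochondrial form (chr16:46884362-46931289, plus strand), had 11.12 FPKM in the JJ012 control, 5.45 FPKM after melatonin, 5.20 FPKM in the 143B control and 5.41 FPKM after melatonin. The JJ012 control stood alone, and the other 3 libraries had overlapping counting intervals. Its log2 fold change was −0.91 in JJ012, and 8.56% of all genes read there had a value as low or lower, against 0.05 in 143B, with a CPM interval from −0.12 to 0.23.

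GPT, the cytosolic form, which lies on chromosome 8, was scarce, with 57 counts in the JJ012 control, 29 after melatonin, 12 in the 143B control and 36 after melatonin, or 1.08, 0.65, 0.27 and 0.76 FPKM. In JJ012 its fold change of −0.33 lay within the fold, although the ratio of CPM was 1.65-fold lower (1.04-fold to 2.68-fold). In 143B it was under 1 FPKM in both libraries and was not read for a fold change, and its ratio of CPM was 2.78-fold higher (1.41-fold to 5.86-fold). An unnamed gene on the opposite strand, ENSG00000255182, shares 2472 bases with GPT and had 112, 61, 37 and 56 counts, more than GPT itself in each library. Its log2 ratio of CPM was −0.63 in JJ012 and 0.49 in 143B, where the interval, from −0.14 to 1.13, includes 0. Without a stated strand setting, reads from the shared region cannot be told apart, and the ratios of GPT carry that uncertainty. The ratio of GPT2 to GPT was 10.3 in the JJ012 control and 8.37 after melatonin, values whose intervals overlap, and 19.0 in the 143B control and 7.11 after melatonin, where the log2 change was −1.42 with an interval from −2.37 to −0.46.

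**Figure D2:**
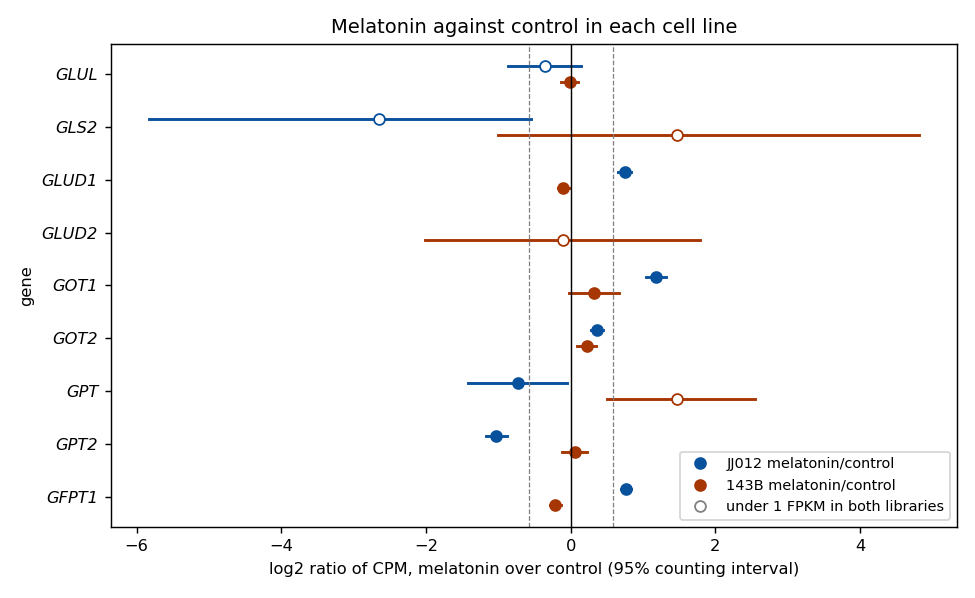
Log2 ratio of CPM, melatonin over control, for each enzyme gene in JJ012 (blue) and 143B (brown), with 95% counting intervals as bars and dashed lines at the fold of 0.58. Open circles are genes under 1 FPKM in both libraries of the pair, and GLUD2 in JJ012 is left out because both of its libraries were at or under the floor. GOT1, GLUD1 and GFPT1 lie to the right and GPT2 to the left in JJ012, while the 143B points of these 4 genes lie between −0.21 and 0.32.

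GFPT1, glutamine-fructose-6-phosphate transaminase, which commits fructose 6-phosphate and the amide nitrogen of glutamine to the hexosamine pathway (chr2:69319780-69387250, minus strand), had 16.41 FPKM in the JJ012 control, 27.94 FPKM after melatonin, 19.06 FPKM in the 143B control and 16.45 FPKM after melatonin. The controls of the lines were close, at a log2 fold change of −0.20, and the melatonin-treated JJ012 library stood above the other 3. The log2 fold change with melatonin was 0.73 in JJ012 and −0.20 in 143B. GFPT2, which catalyses the same reaction and belongs to the list of other glutamine users, had 11.19, 15.19, 49.62 and 77.74 FPKM in the same order of libraries. The ratio of GFPT2 to GFPT1, computed after these levels had been seen, was 0.682 and 0.544 in JJ012 and 2.60 and 4.73 in 143B, so that the more abundant form was GFPT1 in both JJ012 libraries and GFPT2 in both 143B libraries, as it also was in counts not divided by length.

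**Figure D3:**
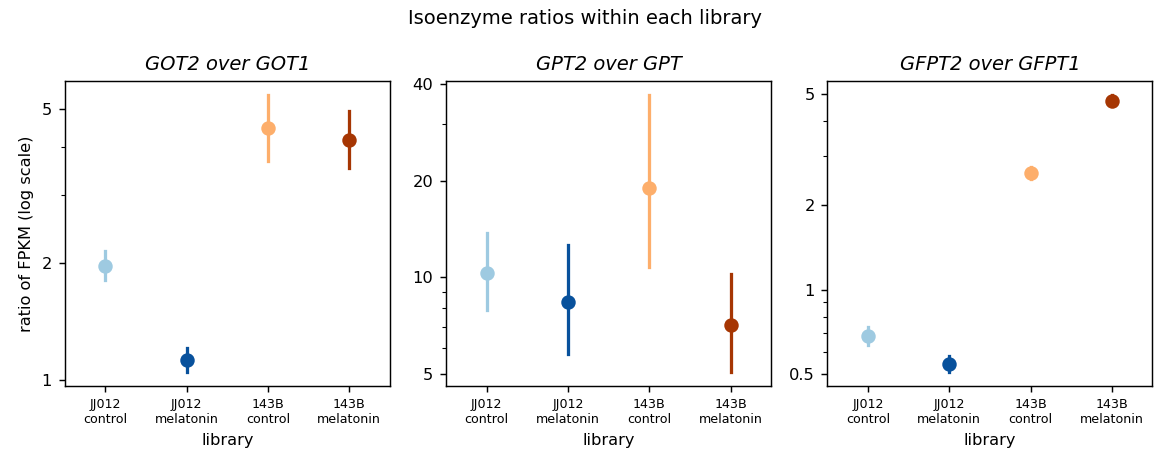
Ratio of FPKM (log scale) between isoenzymes within each library, for the aspartate aminotransferases, the alanine aminotransferases and the hexosamine entry enzymes, with 95% counting intervals. GOT2 over GOT1 went from 1.97 to 1.12 with melatonin in JJ012 and stayed above 4 in 143B, and GFPT2 over GFPT1 was below 1 in JJ012 and above 2 in 143B.

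Set against each other, the melatonin responses of the lines differed beyond counting error, by delta-method intervals, for 6 of the 8 genes with a finite ratio. The share of all genes that differed in this way was not computed, so the count does not set these enzymes apart from other genes. The log2 ratio of CPM in JJ012 exceeded that in 143B by 0.98 for GFPT1 (0.88 to 1.09), by 0.86 for GOT1 (0.49 to 1.22) and by 0.85 for GLUD1 (0.73 to 0.96). For GPT2 the difference was −1.08 (−1.31 to −0.86), and the differences for GPT, at −2.20 (−3.34 to −1.05), and GLS2, at −4.13 (−7.27 to −0.99), rest on few counts. With counts as low as 2, the delta method is unreliable for GLS2. The exact intervals of its log2 ratio of CPM overlapped, from −5.83 to −0.55 in JJ012 and from −1.01 to 4.81 in 143B. For GOT2, at 0.14 (−0.01 to 0.30), and GLUL, at −0.34 (−0.84 to 0.15), the interval includes 0. That of GOT2 lies above 0 with TMM-scaled counts (0.05 to 0.36), with median-of-ratios factors (0.0019 to 0.32) and by TPM (0.32 to 0.63), so that the count is 7 of 8 under each of these scalings. These intervals describe the 4 libraries, and the spread between repeat cultures, which was not measured, would widen them.

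Between the untreated lines, 7 enzymes could be read and 6 passed the fold, where 68.7% of 16929 genes did, 41.3% as higher in JJ012 and 27.4% as lower. Higher in the JJ012 control were GOT1 at a log2 fold change of 1.904, GOT2 at 0.98, GPT2 at 0.97 and GPT at 0.71, that is, all 4 aspartate and alanine aminotransferases, and lower were GLUL at −2.26 and GLUD1 at −0.95. The median over all genes was 0.29 in this comparison, so values in JJ012 were higher over the table as a whole, and with values centred on that median GPT, at 0.43, no longer passed. These 2 control libraries also serve as the references of the melatonin comparisons, so the comparisons are not independent. In order of FPKM the JJ012 control had GOT2, GFPT1, GOT1, GPT2, GLUD1, GPT, GLUL, GLS2 and GLUD2, with only GLUL and GLS2, and GLS2 and GLUD2, overlapping as neighbours within counting error. The 143B control had GFPT1, GOT2, GLUD1, GLUL, GPT2, GOT1, GPT, GLUD2 and GLS2. Neighbours that overlapped there were GOT2 and GLUD1, GLUL and GPT2, GPT and GLUD2, and GLUD2 and GLS2.

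The order of genes within a library rests on the length by which counts were divided. The deposited exonic length was 14283 bases for GLUD1 and 12638 bases for GLUL, and the GENCODE 29 transcript with the longest coding sequence is 3039 and 4364 bases long. Per kilobase of that transcript GLUD1 had 30.0, 50.2, 62.4 and 58.1 CPM in the 4 libraries, above GOT1 and GFPT1 in each and above all other enzymes in both 143B libraries. GOT2 was then the highest in both JJ012 libraries, at 43.6 and 56.1. The fold change of a gene between libraries depends on this choice only through the pseudocount, but whether the gene reaches 1 FPKM and is read depends on it too. Per kilobase of transcript GLUL had 1.04 CPM in the JJ012 control and GPT 1.11 CPM in melatonin-treated 143B. By the deposited lengths neither was read for melatonin in that line.

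The other genes of glutamine and glutamate metabolism were taken as 7 lists of 64 genes in all. In JJ012, 54 of them could be read, 10 were higher and 2 lower with melatonin, with a median of 0.06, and in 143B 49 could be read, 4 were higher and none lower, also with a median of 0.06. Between the untreated lines 27 of 56 were higher in JJ012 and 13 lower, with a median of 0.51 against 0.29 for all genes. The 12 of 54 past the fold in JJ012 and the 4 of 49 in 143B stand beside 38.2% and 12.7% of all genes, and the 40 of 56 between the untreated lines beside 68.7%.

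Of 11 genes of the hexosamine pathway after GFPT1, all read in JJ012, 3 were higher with melatonin and none lower, beside 19.6% higher and 18.6% lower over all genes. They were GNPNAT1, which acetylates glucosamine 6-phosphate, at 0.81, OGT, which attaches N-acetylglucosamine to proteins, at 0.82, and OGA, which removes it, at 0.77. The list had a median of 0.35 in JJ012 and −0.18 in 143B, where none of 9 passed the fold. OGT stood at 9.02 FPKM in the JJ012 control, 16.69 FPKM after melatonin, 179.48 FPKM in the 143B control and 123.23 FPKM after melatonin, and its log2 fold change of −4.17 between the controls was larger than that of any of the 9 enzymes. Like GFPT1, OGT and OGA had higher levels after melatonin in JJ012 and lower ones in 143B, where their fold changes of −0.54 and −0.28 lay within the fold.

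Of 12 other glutamate-linked transaminases and GABA enzymes, 6 could be read in JJ012 and 2 were higher with melatonin, beside the 19.6% of all genes. BCAT1, the cytosolic branched-chain aminotransferase, had 6.89 FPKM in the JJ012 control, 34.66 FPKM after melatonin, 34.12 FPKM in the 143B control and 34.44 FPKM after melatonin, or 2.18 on the log2 scale with melatonin in JJ012 and 0.01 in 143B. PSAT1, which uses glutamate in serine synthesis, had 5, 10.28, 21.14 and 22.08 FPKM, with 0.91 in JJ012. In both cases the JJ012 control was the low library. BCAT2, the mitochondrial counterpart of BCAT1, did not follow it, with 10.23 and 10.07 FPKM in JJ012.

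Among 10 other glutamine users, PPAT, which takes the amide nitrogen into purine synthesis, was higher in JJ012 with melatonin at 1.21, and GFPT2 was higher in 143B at 0.64. In the glutathione list, GSR, glutathione reductase, at 0.82, and GCLM, the modifier subunit of glutamate-cysteine ligase, at 0.67, were higher in JJ012, and the third gene past the fold, GGT5, which cleaves extracellular glutathione, was lower at −1.06, from 436 to 125 counts, while GSR and GCLM had −0.05 and 0.26 in 143B, within the fold. Of the 9 other glutamine users read in JJ012, 2 were higher and none lower. Of the 9 glutathione genes, 2 were higher and 1 lower, beside 19.6% of all genes higher and 18.6% lower. None of the 6 proline and ornithine genes read in JJ012 passed the fold, beside 38.2% of all genes, and their median was −0.27. For the malate-aspartate shuttle, in which GOT1 and GOT2 take part, none of 6 other members passed in JJ012, beside the same 38.2%. In 143B, where 12.7% of all genes passed, SLC25A11, the 2-oxoglutarate carrier, was higher at 0.74. Between the untreated lines 4 of these 6 shuttle genes were higher in JJ012, beside 41.3% of all genes, led by MDH1, cytosolic malate dehydrogenase, at 2.18, and SLC25A13, an aspartate-glutamate carrier, at 1.899. Of the 7 regulators, MYC was higher in JJ012 at 1.54, from 2.86 to 10.20 FPKM, and SIRT3, a mitochondrial deacetylase, was lower at −0.60.

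**Figure D4:**
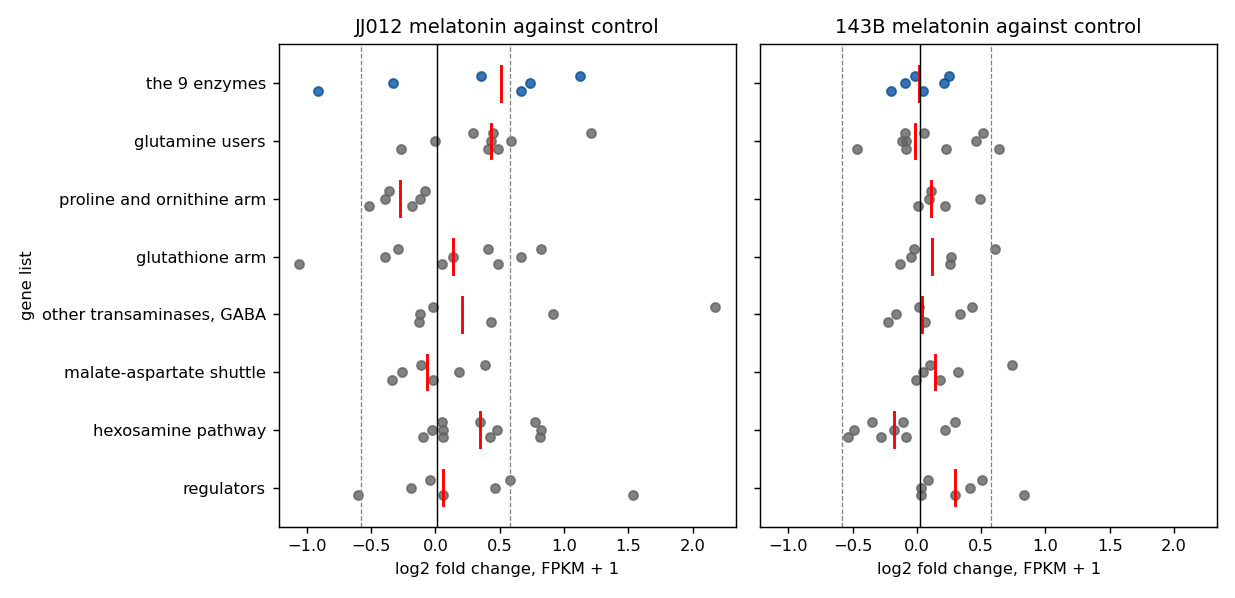
Log2 fold change of FPKM + 1 with melatonin for the enzymes (blue) and for the genes of 7 lists of glutamine and glutamate metabolism (grey) that could be read in each line. Red bars are the medians of the lists, the black line is the median of all genes read and dashed lines mark the fold of 0.58. The enzymes spread from −0.91 to 1.12 in JJ012 and from −0.20 to 0.25 in 143B.

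In JJ012 the fold change moved with the length of a gene. The Spearman correlation of the 2 over all genes read was 0.239 in JJ012 and −0.01 in 143B, a description over genes that share the same libraries. The running median of the fold change at the exonic length of GLUD1 was 0.31 and at that of GFPT1 0.25, and less these values GLUD1 stood at 0.35 and GFPT1 at 0.48, both under the fold. GOT1, a short gene with 2424 exonic bases, stood further out, at 1.34 in place of 1.12, and GPT2 at −1.09 in place of −0.91. GOT1 and GPT2 were thus past the fold with and without the trend, and GLUD1 and GFPT1 only with it. These values rest on the deposited exonic length, 14283 bases for GLUD1, whose GENCODE 29 transcript has 3039 bases. The trend over transcript length was not computed. Whether the trend is a property of the cells or of the libraries was not tested.

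**Figure D5:**
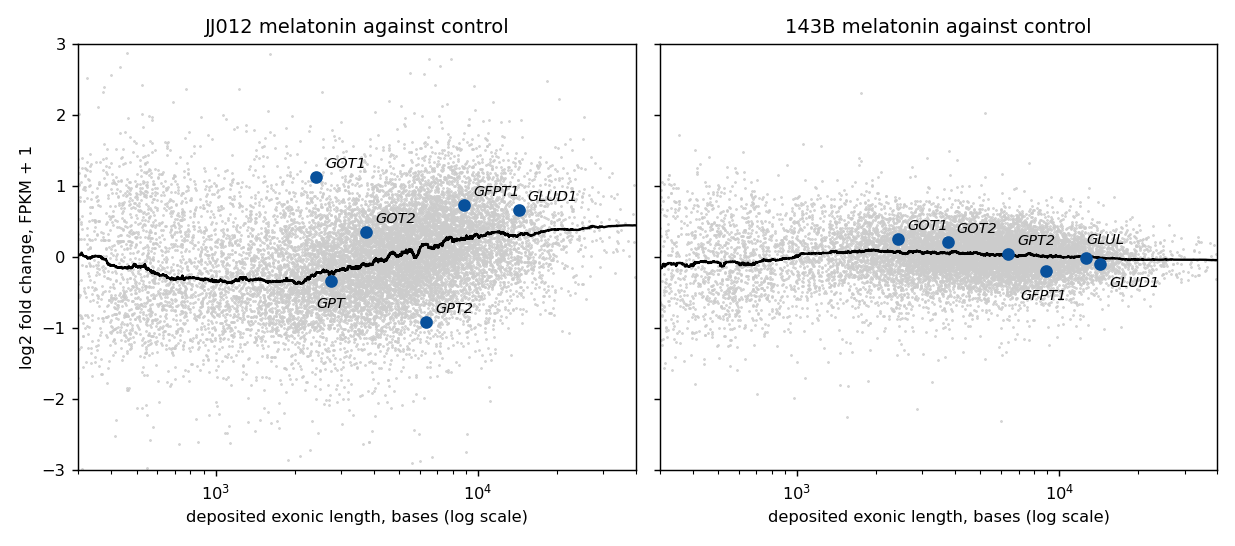
Log2 fold change of FPKM + 1 with melatonin against the deposited exonic length (log scale) for all genes read in each line (grey), with the running median (black) and the enzymes (blue). Genes beyond the plotted ranges are not drawn. The running median climbs with length in JJ012 and is nearly flat in 143B, GLUD1 and GFPT1 lie above it at long lengths, and GOT1 and GPT2 lie well away from it.

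For the 4 enzymes with at least 5 FPKM in every library, the most similar genes over the 4 libraries were sought among 4732 genes by the distance between log2(FPKM + 1) profiles centred on each gene. GLUD1 was closest to PLEKHF2, with 6.17, 9.79, 12.85 and 11.69 FPKM, and to PTBP1, and GOT2 to COQ9, with 15.60, 20.17, 7.27 and 8.65 FPKM, and to ANXA7. GPT2 was closest to THOC7, with 30.38, 15.30, 14.83 and 15.86 FPKM, and to SRP14, and GFPT1 to TICAM1, with 8.45, 15.00, 9.78 and 8.40 FPKM, and to GRPEL2. The distances were between 0.021 and 0.083 in log2, over 4 libraries only.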

How the data were processed

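RNA-seq data were analysed for 4 libraries, with conditions taken from the sample labels. Counts, whole and not normalized, were deposited by the authors for each gene together with FPKM, which were recomputed from the counts, the deposited exonic length and the library totals to within 0.0051 FPKM for all 61806 genes. The submitters' processing notes name hg38, cutadapt 1.9.1, HISAT2 2.2.1, HTSeq 0.6.1 and DESeq2, without their roles. The annotation release, the strand setting and what a count stands for (a read or a pair) are not given in the sources used here. The table was filtered, for each comparison, to genes that reached 1 FPKM in either library, and the pseudocount was 1 FPKM. The fold of 0.58 follows the study's methods, whose false discovery rate could not be recomputed as a test of conditions because edgeR's quasi-likelihood test needs replicates. edgeR 4.0.16 (R 4.3.3) was used for TMM factors alone. Ratios of CPM carry Clopper-Pearson intervals, levels Poisson intervals, and differences and ratios of isoenzymes intervals by the delta method or Clopper-Pearson.

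All 9 enzymes are named. From each of the 7 lists, genes past the fold with at least 5 FPKM in 1 library were eligible, up to 3 in each direction, and the text gives examples of them. ATF4, BCAT2, GGT5, GLUD1P3, GLUD1P2 and the neighbouring genes fall outside this in the comparisons given and were named after their values were seen. The members, lists and rules were chosen with earlier results of these data known. Alternatives were a pseudocount of 0.1, no filter, a filter of 5 FPKM, TPM, counts scaled by TMM or median-of-ratios factors, centring on the median gene, removal of the running median over length, and a fold of 1. Levels per kilobase of transcript, the ratio of GFPT2 to GFPT1 and isoenzyme changes less the running median were added after seeing the data. Promoter windows came from RefSeq, and transcripts from GENCODE 29. The procedures were tested on simulated data. Computations used Python 3.11.15, numpy 2.4.6, scipy 1.17.1, pandas 2.3.3, matplotlib 3.10.9 and Biopython 1.88.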

Additional observations from a re-analysis of the deposited data

Results flagged for a closer look

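In 3 enzymes the melatonin-treated library lay on opposite sides of its control in the 2 lines, with counting intervals that exclude 0 on both sides. The share of all genes that did so was not computed, so whether this is usual in these libraries is not known. GPT was under 1 FPKM in both 143B libraries and shares bases with a gene on the opposite strand, and GLUD1 and GFPT1 lay within the fold in 143B. The log2 ratio of CPM was 0.74 in JJ012 and −0.10 in 143B for GLUD1, 0.77 and −0.21 for GFPT1, and −0.72 and 1.47 for GPT, the last on 57 and 29 counts in JJ012 and 12 and 36 counts in 143B. The ratio of GFPT2 to GFPT1 also moved in opposite directions, by −0.33 in JJ012 and 0.86 in 143B on the log2 scale, or −0.14 and 0.81 with the running median over length removed. With 1 library per condition these differences between the lines were not tested against the spread between cultures.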

How the results depend on the processing

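No paired analysis was possible because each condition has 1 library, and leaving out a library would leave no comparison. In JJ012 the number of enzymes past the fold was 4, between 4 and 5 under 7 alternatives, 2 once the running median over exonic length was removed and 1 at a fold of 1, and in 143B it was 0 under all 9 alternatives. Between the untreated lines it was 6, between 4 and 7 under 8 alternatives and 2 at a fold of 1. The number of pathway genes past the fold in JJ012 was 12, with 25 by TPM, which moved the median of all genes from 0.01 to 0.27, and 4 at a fold of 1. In 143B it was 4, with 10 at a pseudocount of 0.1 FPKM, 9 with TMM-scaled counts, 10 with median-of-ratios factors, 7 by TPM, 2 with the filter of 5 FPKM, 2 with the running median removed and 0 at a fold of 1, and between the untreated lines it was 40, with 24 at the filter of 5 FPKM. By TPM the response in JJ012 less that in 143B was 1.18 for GLUD1, 1.31 for GFPT1, 0.47 for GOT2 and −0.75 for GPT2, and for GOT2 it was 0.21 with TMM-scaled counts and 0.16 with median-of-ratios factors, each with a counting interval above 0, unlike the reported 0.14. GOT2 in JJ012 stood at 0.63 by TPM, past the fold but with the median of all genes at 0.27, and GPT at −0.65 with a pseudocount of 0.1 FPKM. Between the untreated lines TPM moved the median of all genes from 0.29 to −0.01 and GFPT1 to −0.59. The fold change of GPT between the untreated lines changed sign with the running median removed, to −0.020, and GOT2 there stood at 0.52, under the fold. Division by length cancels in the changes of isoenzyme ratios, but the trend of the fold change with length in JJ012 does not. With its running medians removed, an alternative added after seeing the data, the log2 change in JJ012 was −0.92 for GOT2 over GOT1, −0.69 for GPT2 over GPT and −0.14 for GFPT2 over GFPT1, in place of −0.81, −0.30 and −0.33. Counts of 57 or fewer limit GPT, GLS2 and GLUD2 in every comparison. The causes of these shifts were not tested, apart from the smaller number of genes left by the filter and the stricter fold.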
